A study of Mus musculus with 39 samples.

Results

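The 10 genes described here code for enzymes of branched chain amino acid breakdown, measured in mouse epididymal adipose tissue under a low fat diet and a high fat diet with or without KAL-1. A gene was taken by its name in the scanner files, and all 10 (Bcat2, Bckdha, Bckdhb, Dbt, Ivd, Mccc1, Hibadh, Aldh6a1, Pcca and Pccb) were found among the 29411 gene names on the array. Each gene was read from the brightest of its probes, and its level is the log2 signal minus the array's 75th percentile. A level of 0 therefore means a spot as bright as that percentile, and a step of 1 is a doubling of the signal. The study used epididymal fat of C57BL/6J mice, which were put on their diets after weaning at 3 to 4 weeks of age. LFC mice ate a diet with 10% of calories from fat, and HFC mice ate a high fat, high sucrose diet with 60% of calories from fat. HF5, HF20 and HF75 mice ate what the HFC mice ate and were given KAL-1, an aqueous plant-based formulation, at doses of 5, 20 and 75 µg. There were 39 one-colour arrays, 1 for each diet and time point: 11 for LFC (days 1, 6, 10 and 14, and weeks 0, 3, 6, 9, 12, 15 and 18), 10 for HFC (from day 6) and 6 each for HF5, HF20 and HF75 (weeks 3 to 18). Whether each array was hybridised with RNA of 1 animal or of several is not given. With 1 array per diet and time point, the time points stood in for replicates. A p-value for a diet difference measures it against how much the differences between diets varied from time point to time point. A p-value for a period difference within a diet measures it against the spread between time points. The trend over weeks took diet into account and counted the arrays of a week as separate.

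Valine, leucine and isoleucine are broken down in mitochondria. The first step removes the amino group, and Bcat2 codes for the mitochondrial transaminase that does so. The branched chain ketoacid dehydrogenase complex then commits the carbon skeleton to breakdown; Bckdha and Bckdhb code for the alpha and beta subunits of its E1 decarboxylase and Dbt for its E2 transacylase. After that the paths part. Ivd (isovaleryl-CoA dehydrogenase) and Mccc1 (the alpha subunit of methylcrotonyl-CoA carboxylase) act on leucine, and Hibadh (3-hydroxyisobutyrate dehydrogenase) and Aldh6a1 (methylmalonate semialdehyde dehydrogenase) act on valine. Pcca and Pccb code for the subunits of propionyl-CoA carboxylase, which takes up the propionyl-CoA made from valine and isoleucine. White adipocytes are known to burn branched chain amino acids as they differentiate, and low expression of these enzymes in visceral fat is a known feature of obesity.

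The 10 genes had 16 probes in all, each a 60-base oligonucleotide, and 5 genes had more than 1. The sequences below are shown since they set which transcript a value belongs to: the only probe of Pcca, the gene with the largest difference between periods under HFC, and the second probes of 4 genes that served as a check on the brightest. They are written 5′ to 3′ as the scanner files give them, and the array annotation places Bckdhb on chromosome 9, Bckdha and Bcat2 on chromosome 7 and Mccc1 on chromosome 3.
Pcca: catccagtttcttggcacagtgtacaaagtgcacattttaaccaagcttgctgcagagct
Bckdhb (second probe): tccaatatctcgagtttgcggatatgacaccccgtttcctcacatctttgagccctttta
Bcat2 (second probe): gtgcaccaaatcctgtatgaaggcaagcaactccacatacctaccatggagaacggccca
Bckdha (second probe): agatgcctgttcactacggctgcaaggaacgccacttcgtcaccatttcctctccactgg
Mccc1 (second probe): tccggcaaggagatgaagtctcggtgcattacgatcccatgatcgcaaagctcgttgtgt
Over 37 arrays the second probe followed the brightest with a Pearson r of 0.98 for Bckdhb, 0.97 for Bcat2, 0.89 for Ivd, 0.85 for Bckdha and 0.82 for Mccc1. Another, dimmer probe of Bcat2 followed it with an r of 0.59. These values do not show that all probes of a gene give the same difference. With all probes averaged some differences changed sign, as given at the end. Levels are compared between arrays and never between genes, since each probe has its own brightness.

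Because the 10 genes moved together from array to array, as shown further on, their promoters were read too. RefSeq (GRCm38.p6) gave 13 start sites for 9 of the genes, and Dbt had no entry. In the 250 bases before the start site, CCAAT or its reverse complement ATTGG (both strands searched, overlapping matches of the pair counted as both) stood before 8 of 13 start sites, from 6 of 9 genes, against 33.8% of 32851 mouse promoters. At least 3 matches were found before 3 of the 13, against 2.79% of all promoters. The motif was chosen after the sequences had been read, so these shares are a description and a match is not a shown binding site. The 3 promoters with at least 3 matches follow, with each match in capitals, in the direction of transcription.
Ivd, chr2:118861744-118861993, plus strand: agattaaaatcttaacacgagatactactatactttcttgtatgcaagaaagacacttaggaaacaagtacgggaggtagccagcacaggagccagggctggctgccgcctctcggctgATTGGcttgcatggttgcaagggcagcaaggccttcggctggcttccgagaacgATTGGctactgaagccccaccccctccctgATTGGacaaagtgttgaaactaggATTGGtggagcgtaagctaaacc
Mccc1, chr3:36000679-36000928, minus strand: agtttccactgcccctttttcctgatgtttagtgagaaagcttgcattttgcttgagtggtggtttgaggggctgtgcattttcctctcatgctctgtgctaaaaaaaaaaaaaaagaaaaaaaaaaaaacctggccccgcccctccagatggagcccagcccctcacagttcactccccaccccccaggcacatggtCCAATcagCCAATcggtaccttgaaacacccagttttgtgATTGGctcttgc
Aldh6a1, chr12:84451025-84451274, minus strand: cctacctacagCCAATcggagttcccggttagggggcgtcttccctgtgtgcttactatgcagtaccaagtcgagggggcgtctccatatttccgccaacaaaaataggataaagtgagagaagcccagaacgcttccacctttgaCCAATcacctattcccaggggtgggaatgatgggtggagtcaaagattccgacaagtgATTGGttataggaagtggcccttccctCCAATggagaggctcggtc

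The arrays of LFC week 3 and HFC week 12 stood apart. The scanner software marked 16431 and 10531 of their spots as outliers, against 21 to 387 on the other 37, and 97.05% and 94.53% of their spots were well above background, against 53.71% to 79.59%. The outlier marks removed Bcat2, Dbt and Pccb from the LFC week 3 array. Every comparison of the 10 enzymes is therefore given with and without them. Fitted differences of the other pathway genes and of the marker lists use all arrays unless stated. The 75th percentile of the other arrays ran from 119.5 (HF5 week 9) to 1471.7 intensity units. All 10 genes were well above background on every array that gave a value, and Mccc1 and Aldh6a1 were saturated on 1 array, that of HF75 week 12, so their levels there are lower bounds. The arrays had 13 scan dates. The days were scanned in another period than the weeks, so for days against weeks scan date and time cannot be told apart. Diets of a time point shared a scan date except at week 3, where LFC was scanned apart from the other diets, and at week 6, where HF20 and HF75 were scanned apart from LFC, HFC and HF5.

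The enzymes swung widely and together between arrays, more than between diets. The median level of the 10 genes ran from 0.06 to 3.78 over the 37 arrays, a 13.2-fold range, and no gap between neighbouring arrays was wider than 0.32. Dbt had the widest range, from -4.73 on the HF5 week 15 array to 1.22 on the HF75 week 12 array. Pcca followed, from -2.61 on the dim HF5 week 9 array to 3.10. Hibadh had the narrowest, from 1.93 to 4.81, a 7.36-fold range. Pearson's r between 2 of the genes over these arrays ran from 0.73 to 0.96 with a median of 0.89 over 45 pairs. After each time point's mean was subtracted it ran from 0.68 to 0.97, so the shared movement was also seen between diets at one time.

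**Figure D1:**
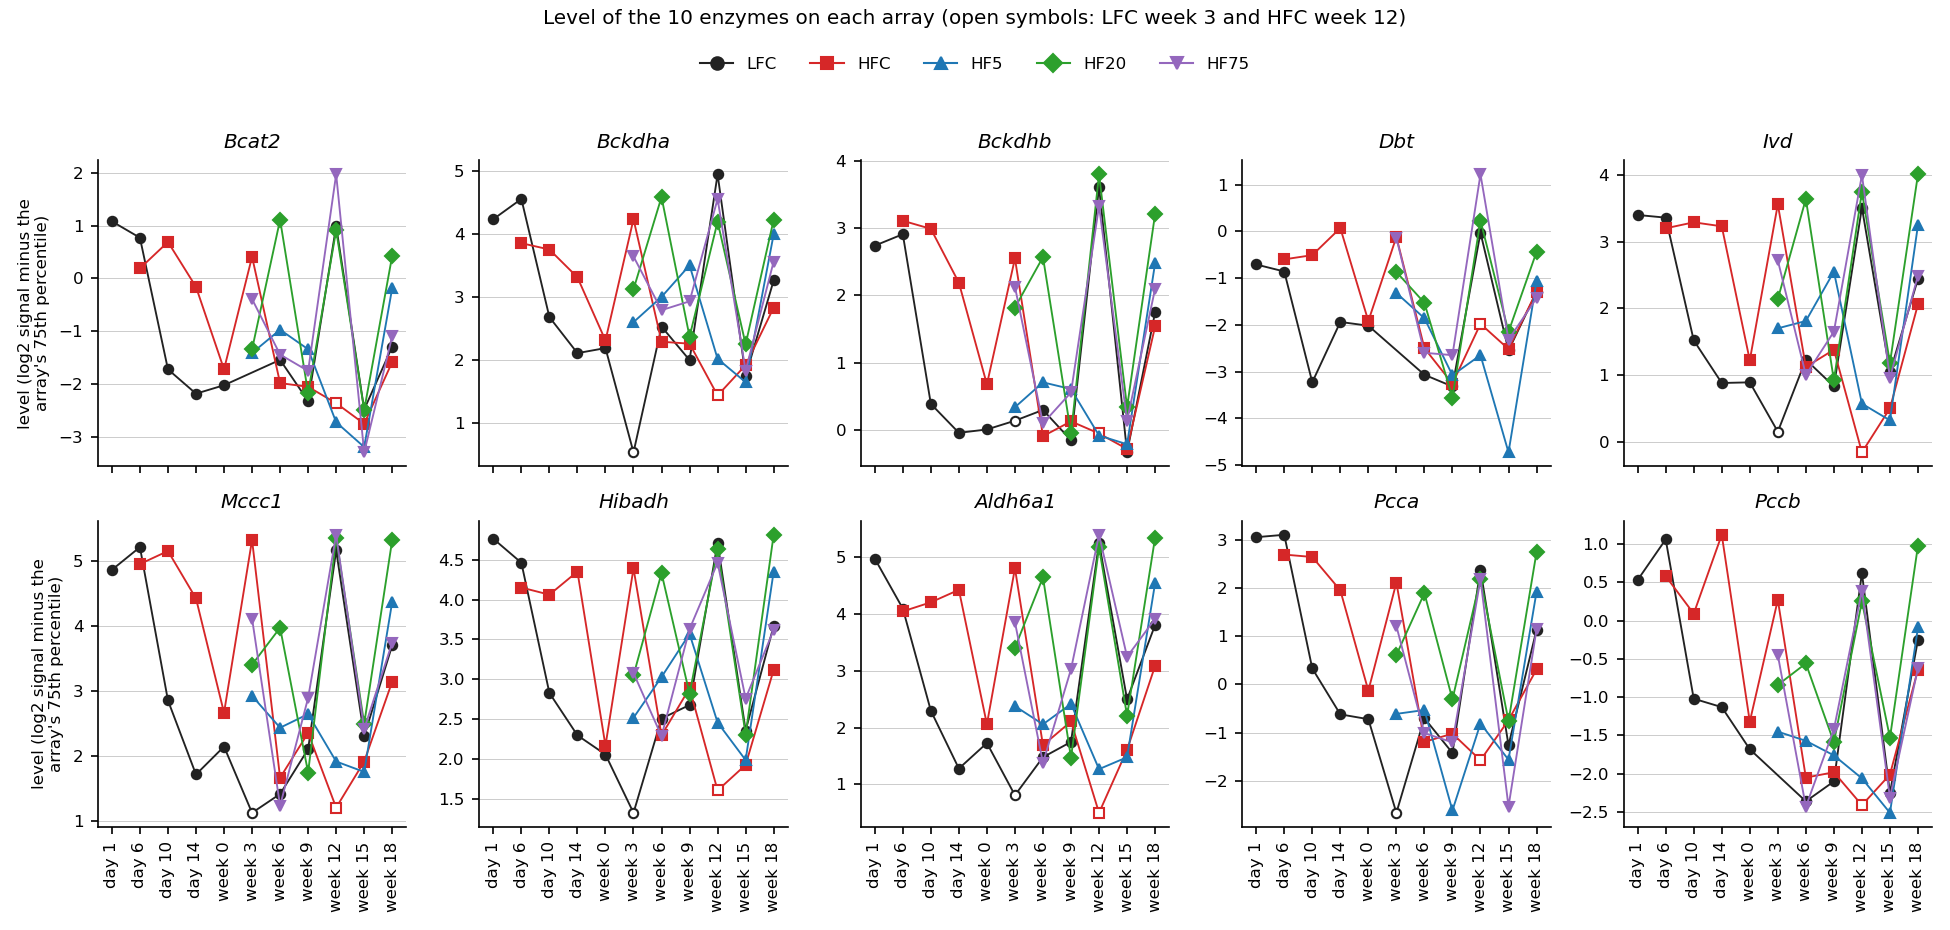
Level of each enzyme (y axis, log2 signal minus the array's 75th percentile) at each time point (x axis) in LFC, HFC, HF5, HF20 and HF75; each point is 1 array, and open symbols are the arrays of LFC week 3 and HFC week 12. The panels rise and fall alike, with median levels from 0.06 to 0.76 on the 5 arrays of week 15 and from 3.56 to 3.78 at week 12 in LFC, HF20 and HF75.

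Time point by time point, the enzymes under LFC began high, with a median level of 3.23 on the arrays of days 1 and 6. They were at 0.95 at day 10, 0.42 at day 14 and 0.45 at week 0. Under HFC they stood at 3.15, 3.14 and 2.71 at days 6, 10 and 14 and at 0.95 at week 0. In the later weeks no diet kept to a level. At week 12 the median was 3.56 in LFC, 3.78 in HF20 and 3.67 in HF75, but 0.24 in HF5 and -0.11 on the HFC array that stood apart. At week 15 it lay between 0.06 and 0.76 in all 5 diets, and at week 18 between 1.80 and 3.61. Weeks were counted from day 14, so day 14 and week 0 were the same time on the diet: the paired LFC medians were 0.42 and 0.45, while the paired HFC medians were 2.71 and 0.95.

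The entry step and the committed step showed this pattern in full. Bcat2 under LFC was at 1.08, 0.77, -1.72, -2.18 and -2.02 from day 1 to week 0, and its later values had a lowest of -2.48, a median of -1.54 and a highest of 0.99 (week 12). Under HFC, Bcat2 was at 0.19, 0.69, -0.16 and -1.72 from day 6 to week 0 and from -2.75 to 0.41 later. Its values under the 2 diets overlapped. Bckdhb was at 2.74 and 2.91 on the first LFC arrays, at 0.39, -0.04 and 0.01 on the next ones, and between -0.33 and 3.61 later. Under HFC the same E1 subunit was at 3.11, 2.99, 2.19 and 0.68, then between -0.28 and 2.55. Bckdha, its partner in E1, kept a smaller range, from 1.65 to 4.94 over the 37 arrays, with its highest value at LFC week 12. Dbt, the E2 core, was highest on the HF75 week 12 array.

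The branch enzymes followed. Of the leucine enzymes, Ivd ran from 0.32 to 4.01 and Mccc1 from 1.24 to 5.41, with Ivd highest at HF20 week 18 and Mccc1 at HF75 week 12, where it was saturated and 5.41 is a lower bound. Of the valine enzymes, Hibadh peaked at 4.81 on the HF20 week 18 array and Aldh6a1 at 5.40, again a lower bound from a saturated spot, on the HF75 week 12 array. Pcca peaked at 3.10 on the LFC day 6 array and Pccb at 1.12 on the HFC day 14 array. Thus the peaks were spread over LFC, HFC, HF20 and HF75. None of the 10 peaked under HF5.

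The first comparison asked whether the high fat diet changed these enzymes against the low fat diet. Over the 10 shared time points all 10 were higher on average under HFC, by 0.01 (Bcat2) to 0.55 (Pcca). The median was 0.35 against 0.03 over all probes, and none passed the test. Bcat2, Dbt and Pccb had no LFC week 3 value, so their differences lack a pair that the other enzymes have. Bcat2 was higher by 0.43 without the 2 arrays that stood apart. Mccc1 was higher by 0.51 ± 0.62 (SE), with a 95% interval from -0.83 to 1.85, and Pcca by 0.55 ± 0.65, with an interval from -0.86 to 1.95. Dbt came closest (0.42 ± 0.40, p = 0.313, adjusted p = 0.998 by limma). Limma called 0% of 29168 probes at an adjusted p under 0.05, and 3.05% had an unadjusted p under 0.05, as did 0 of the 10 enzymes. With both arrays that stood apart left out, the differences ran from 0.18 to 0.72 with a median of 0.50, and Dbt stood at 0.72 ± 0.33 (interval from -0.02 to 1.46, adjusted p = 0.708 by limma). With scan date as the block in place of time point the median was 0.03 and 7 of 10 were higher, and without week 3 it was also 0.03. With normexp, quantile or median scaling 8 of 10 were higher. Over these time points all 5 mesothelium markers (median 0.86), all 6 macrophage markers (0.67) and 6 of 8 adipocyte markers (0.41) were higher under HFC. All 4 epididymis (-1.86) and all 4 testis markers tested (-1.26) were lower, and no marker passed the adjusted threshold. Without the 2 arrays 2 of 3 epididymis markers tested were lower (median -0.65). The part of the marker lists in the result was not tested.

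By time point the differences were uneven. At days 10 and 14 all 10 enzymes were higher on the HFC array, by a median of 2.10 (range 1.07 to 2.72) and 2.24 (1.20 to 3.14). Mccc1, for example, was at 5.16 and 4.43 under HFC against 2.86 and 1.72 under LFC at these times. Marker lists moved on the same arrays. At day 10 the mean level of the endothelial markers was 0.91 under HFC against 3.64 under LFC, that of the testis markers -3.44 against 2.49 and that of the adipocyte markers 4.66 against 3.21. The macrophage markers were at 2.29 against -0.38, the mesothelium markers at 1.7 against -0.55 and the epididymis markers at -0.16 against 2.19. At day 14 the adipocyte markers were at 5.06 under HFC against 2.32 under LFC and the epididymis markers at -6.15 against 1.74, and the part of these lists was not tested. At day 6 the median difference was -0.29, and at week 0 it was 0.33. At weeks 6, 9, 15 and 18 it lay between -0.41 and 0.26, and 4, 10, 5 and 1 of the 10 enzymes were higher under HFC. The largest differences were 3.68 at week 3 (7 enzymes with a value, all higher under HFC) and -3.58 at week 12 (all 10 lower), and each of these rests on an array that stood apart. There was 1 array per diet at each time, so no difference at a single time point could be tested.

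**Figure D2:**
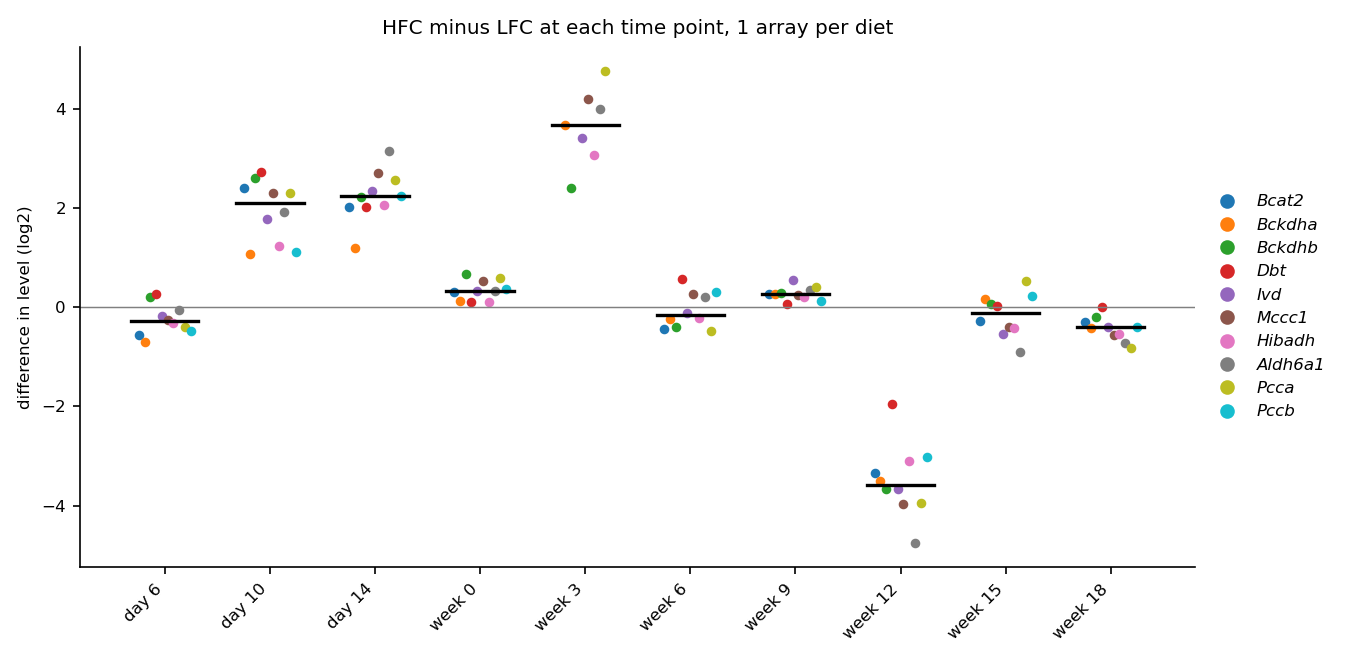
Difference in level (log2, y axis) between the HFC and LFC arrays of each time point (x axis); points are the enzymes, and the bar is their median. The medians are 2.10 at day 10 and 2.24 at day 14; the values of 3.68 at week 3 and -3.58 at week 12 involve the arrays of LFC week 3 and HFC week 12.

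Over weeks 3 to 18, in a fit of all 5 diets, the HFC and LFC differences ran from -0.50 (Bcat2) to 0.07 (Pcca). The median was -0.15, and 1 of 10 was higher under HFC. Bcat2, Dbt and Pccb again had no LFC week 3 value. Limma called 0% of 31450 probes, 2.31% of probes had an unadjusted p under 0.05, and none of the 10 enzymes did. Without the 2 arrays the range was -0.18 to 0.19. The interval of Bckdhb ran from -1.40 to 0.90 and that of Pcca from -1.34 to 1.48. The mean of the 4 high fat groups against LFC gave -0.03 (Pccb) to 0.49 (Bckdha), a median of 0.32 and 8 of 10 higher; 0% of probes passed the adjusted threshold and 6.1% an unadjusted p of 0.05, with none of the 10 among them. Without the 2 arrays that median was 0.11. With scan date as the block it was -0.05 with 2 of 10 higher, and without week 3 it was -0.02 with 4 of 10 higher, so the direction did not hold.

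The next question was whether the enzymes of a diet differed between its later and earlier arrays. Under HFC all 10 were lower at weeks 3 to 18 than from day 6 to week 0, by 0.81 (Bckdha) to 2.14 (Pcca) on the log2 scale, with a median of -1.43 against 0.02 over all probes. Pcca had early values of 2.69, 2.64, 1.95 and -0.13, and late values with a lowest of -1.57, a median of -0.88 and a highest of 2.11. The 2 periods overlapped: week 3 lay above day 14, and week 18, at 0.31, above week 0. Its fitted change was -2.14 ± 0.77 (SE; interval from -3.83 to -0.44, p = 0.018, adjusted p = 0.235 by limma). Pccb, its partner subunit, had early values of 0.58, 0.09, 1.12 and -1.32 and late values from -2.41 to 0.27, a change of -1.59 ± 0.61 (adjusted p = 0.247 by limma). Bckdhb changed by -1.61 ± 0.66 (adjusted p = 0.259 by limma) and Bcat2 by -1.47 ± 0.63 (adjusted p = 0.271 by limma). These 4 were the enzymes with an unadjusted p under 0.05, which 17.3% of 29397 probes had; 0% passed after adjustment. Without the HFC week 12 array the median was -1.27, and Pcca alone kept an unadjusted p under 0.05 (-1.89 ± 0.79).

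This difference depended on which arrays counted as early and on how arrays were weighted. With week 0 as the only early array the median difference of the 10 enzymes was -0.01, with 5 higher and 5 lower. With array weights estimated from the data, all 10 passed the threshold at a median of -2.04 (smallest adjusted p = 0.0101 by limma), but so did 8032 of 29397 probes. The days were also scanned in another period than the weeks. Among the marker lists, all 8 mitochondrial genes (median -0.91) and 7 of 8 adipocyte markers (median -1.04) were lower in the late HFC arrays, as were all 5 mesothelium markers (median -1.55) and 5 of 6 macrophage markers (median -0.73), and all 5 skeletal muscle (median 0.89) and all 4 endothelial markers (median 0.78) were higher; none of these passed the adjusted threshold. The part of these lists in the enzymes' difference was not tested.

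Under LFC the later arrays were lower for all 10 enzymes too, by 0.28 (Aldh6a1) to 1.45 (Pcca), with a median of -0.50 against -0.09 over all probes. Pcca was at 3.05, 3.10, 0.33, -0.62 and -0.72 early and between -2.66 and 2.38 late, a change of -1.45 ± 0.99 (adjusted p = 0.929 by limma). Limma called 149 of 30418 probes (0.49%), none of them an enzyme of this pathway, and 5.52% had an unadjusted p under 0.05, as did 0 of 10. Without the LFC week 3 array the median was -0.28 and Aldh6a1 was at 0.08, and with week 0 as the only early array the median was 0.57. All 8 mitochondrial genes (median -0.72) and all 5 mesothelium markers (-1.76) were lower in the late LFC arrays and all 5 lymphoid markers (1.58) were higher, and their part was not tested. The difference between the diets in this change was tested as well. HFC minus LFC fell by 0.43 (Bckdha) to 1.86 (Bcat2) on the log2 scale from the early to the late time points. The median was -1.36 against 0.15 over all probes. Bcat2, Dbt and Pccb had no week 3 pair, so their values rest on fewer time points than those of the other enzymes. Dbt (-1.53 ± 0.70, p = 0.0513) and Bcat2 (-1.86 ± 0.85, p = 0.0528) came closest, with an adjusted p of 0.841 each by limma; 0% of 29168 probes passed and 5.14% had an unadjusted p under 0.05. Without the 2 arrays, Bckdhb (-1.49 ± 0.54, p = 0.0226) and Aldh6a1 (-1.59 ± 0.69, p = 0.0469) had an unadjusted p under 0.05, with an adjusted p of 0.69 each by limma. In the same comparison all 8 adipocyte markers were lower (median -1.17) and all 4 endothelial markers higher (1.36), and their part was not tested.

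**Figure D3:**
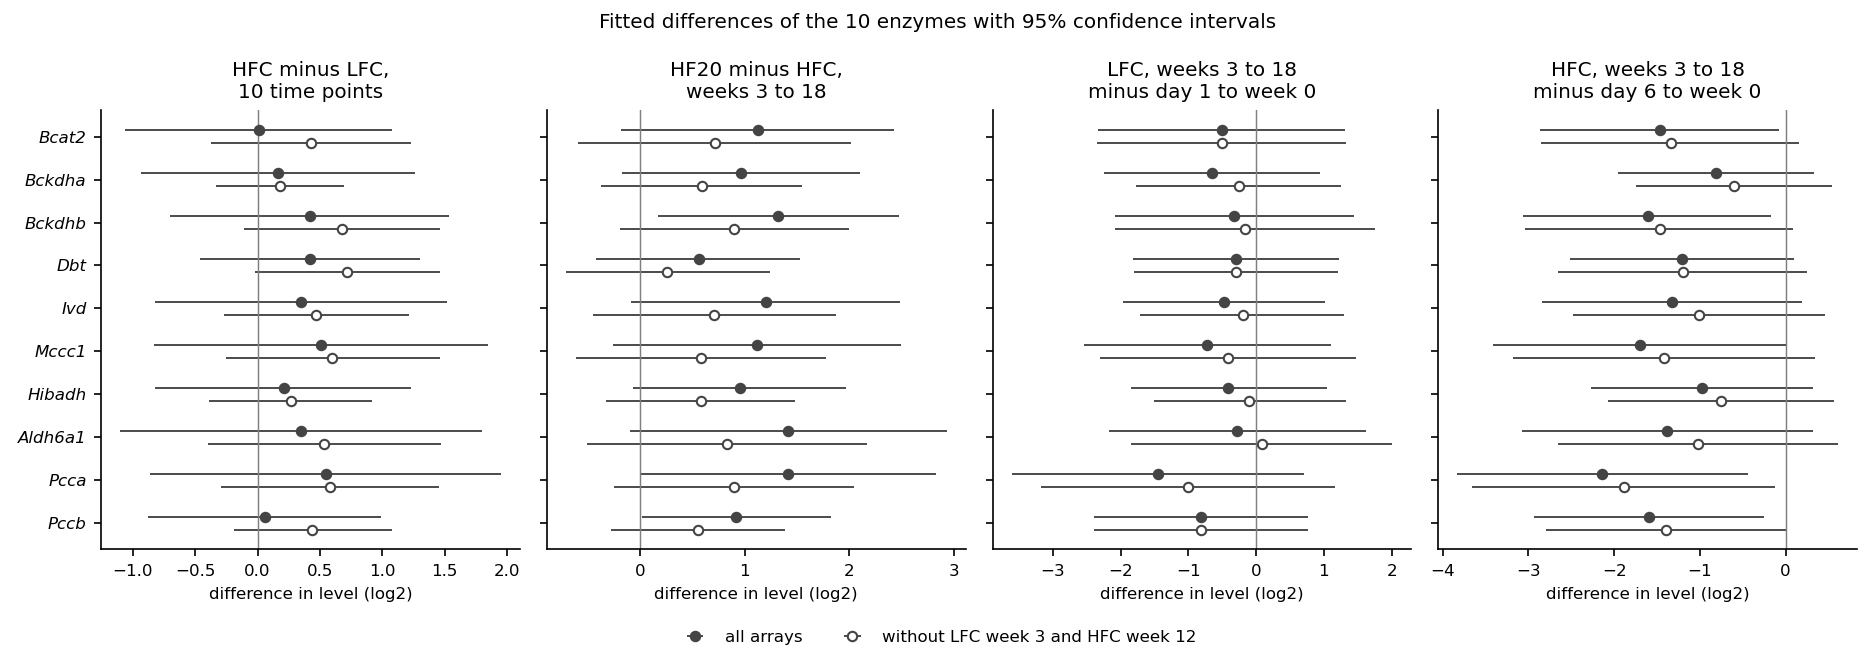
Fitted difference in level (log2, x axis) of each enzyme (y axis) in 4 comparisons, with 95% confidence intervals; filled points use all arrays and open points leave out LFC week 3 and HFC week 12. All 10 points lie above 0 for HF20 minus HFC and below 0 for late minus early HFC arrays, where Pcca is lowest at -2.14.

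The KAL-1 doses were compared with HFC over weeks 3 to 18; the 3 comparisons share the 6 HFC arrays, so they are not independent of each other. Under HF20 all 10 enzymes were higher than under HFC, by 0.56 (Dbt) to 1.41 (Pcca and Aldh6a1), with a median of 1.12 against -0.07 over all probes. Bckdhb was at 1.82, 2.57, -0.05, 3.80, 0.34 and 3.21 from week 3 to week 18 under HF20, and at 2.55, -0.09, 0.13, -0.05, -0.28 and 1.54 under HFC. HF20 was thus higher at weeks 6, 12, 15 and 18 and lower at weeks 3 and 9. Its fitted difference was 1.32 ± 0.56 (SE; interval from 0.17 to 2.47, p = 0.0268, adjusted p = 0.78 by limma). Pccb was at -0.84, -0.56, -1.59, 0.25, -1.53 and 0.98 under HF20 and at 0.27, -2.05, -1.98, -2.41, -2.01 and -0.64 under HFC, higher in 5 of 6 weeks. Its difference was 0.92 ± 0.43 (p = 0.0452, adjusted p = 0.78 by limma). These were 2 of 10 enzymes with an unadjusted p under 0.05, against 4.84% of 31450 probes; 0% passed after adjustment.

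By week the HF20 difference was uneven: the median over the enzymes was -1.36 at week 3, 2.42 at week 6, -0.15 at week 9, 3.51 at week 12, 0.43 at week 15 and 1.82 at week 18. At week 6 the HF20 and HFC arrays had different scan dates, and with scan date as the block the median over all weeks was 1.05. The week 6 mesothelium markers had a mean level of -0.16 under HF20 and -4.87 under HFC, and the skeletal muscle markers -4.28 and -0.05. On the same 2 arrays the adipocyte markers were at 5.18 and 2.71 and the mitochondrial genes at 4.52 and 3.47. The endothelial markers were at 0.87 and 2.5, the macrophage markers at 2.36 and 0.07 and the testis markers at 3.59 and -3.28. Mesothelium was also low on the LFC, HF5 and HF75 arrays of that week (-4.66, -5.95 and -5.33). The part of these markers in the week 6 difference was not tested. Week 12 rests on the HFC array that stood apart. Without it and LFC week 3 all 10 enzymes were still higher under HF20, by 0.26 (Dbt) to 0.90 (Bckdhb and Pcca), with a median of 0.65, and Bckdhb stood at 0.90 ± 0.53 (interval from -0.19 to 2, adjusted p = 0.953 by limma). Other cell markers moved beside them. Under HF20, 7 of 8 adipocyte markers (median 0.82), all 8 mitochondrial genes (0.52), all 6 macrophage (0.48), all 5 mesothelium (0.91) and all 5 epididymis markers (1.53) were higher than under HFC, and all 4 endothelial markers were lower (-0.59), none past the adjusted threshold. Their part in the result was not tested.

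Under HF75 all 10 enzymes were higher than under HFC, by 0.32 (Pcca) to 1.17 (Aldh6a1), with a median of 0.71 against -0.01 over all probes. Aldh6a1 came closest to the threshold at 1.17 ± 0.73 (interval from -0.34 to 2.68, adjusted p = 1 by limma). None of the 10 had an unadjusted p under 0.05, against 1.5% of probes, and 0% passed after adjustment. By week the HF75 median was -0.82, -0.06, 0.55, 3.56, 0.32 and 0.53, so the largest value again rests on the HFC week 12 array; without the 2 arrays the median was 0.27 and 8 of 10 were higher, and without week 12 it was 0.08 and 6 of 10 were higher. All 8 mitochondrial genes (median 0.31) and 7 of 8 adipocyte markers (0.31) were higher under HF75 and all 5 mesothelium markers (-0.78) lower. Without the 2 arrays 5 of 8 mitochondrial genes (0.12) and 6 of 8 adipocyte markers (0.15) were higher. The part of these lists was not tested. Under HF5 the differences ran from -0.51 (Dbt) to 0.30 (Bckdha), with a median of 0.07 and 7 of 10 higher. Without the 2 arrays all 10 were lower under HF5 than under HFC, with a median of -0.43 and Pcca lowest at -0.87 ± 0.55 (adjusted p = 0.726 by limma). At week 9 Pcca was lower under HF5 by 1.58, while 9 of 10 enzymes were higher. The HF5 week 9 array was the dimmest, with a 75th percentile of 119.5. For HF5, 0% of probes passed and 3.42% had an unadjusted p under 0.05, with none of the 10 enzymes among them. The mean of the 3 doses was above HFC for all 10 enzymes, with a median of 0.64. Without the 2 arrays 8 of 10 were higher, with a median of 0.23. With all arrays 0% of probes passed and 1.75% had an unadjusted p under 0.05 by limma. The enzymes' smallest p there was 0.139 (Bckdhb). The doses were not tested against each other, and the data do not show that they act alike or differ.

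**Figure D4:**
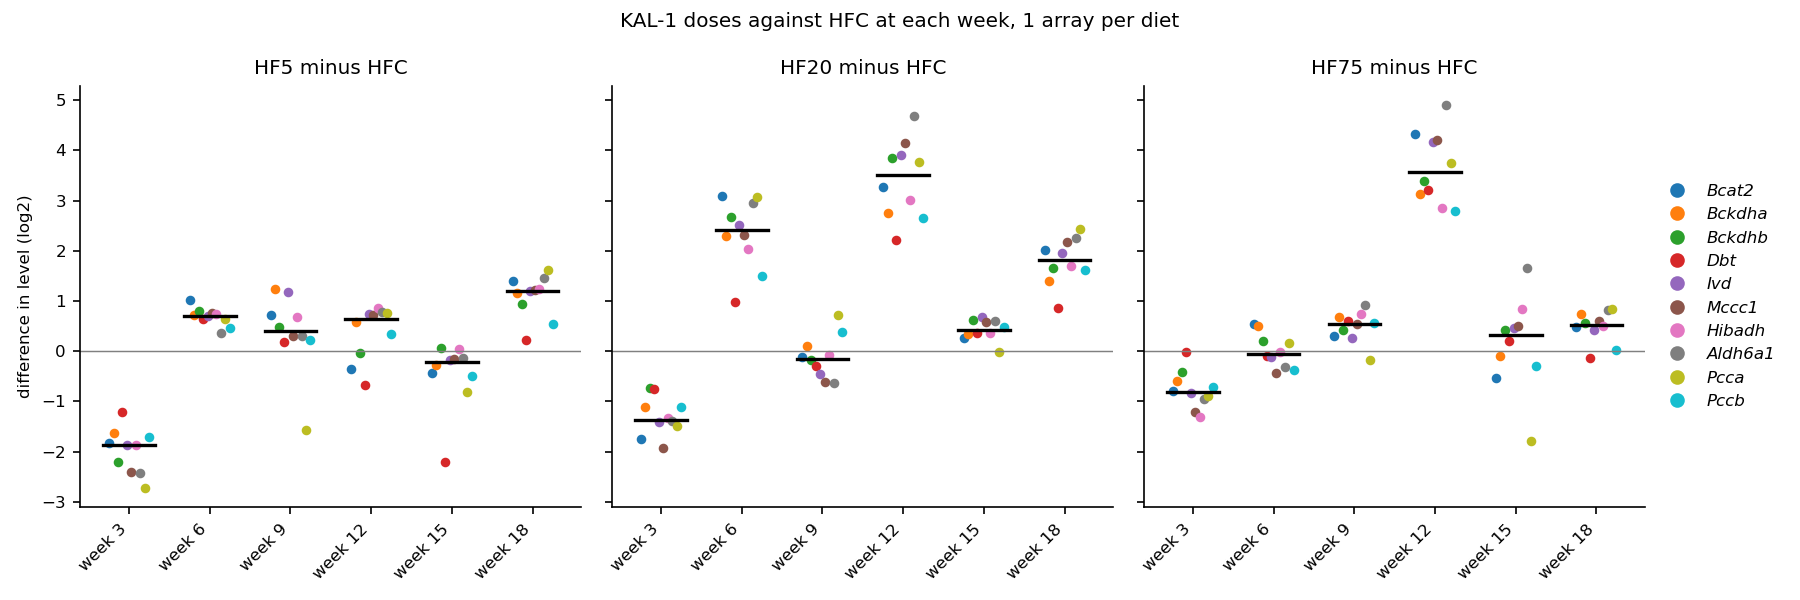
Difference in level (log2, y axis) between the HF5, HF20 or HF75 array and the HFC array of each week (x axis); points are the enzymes and the bar is their median. The HF20 medians are 2.42 at week 6, 3.51 at week 12 and 1.82 at week 18, and the HF75 median of 3.56 at week 12 uses the same HFC array.

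A trend over weeks 3 to 18, fitted across the 5 diets, was small for every enzyme. The slopes ran from -0.037 (Bcat2) to 0.064 log2 units per week (Aldh6a1), with a median of 0.034 against 0.005 over all probes. Limma called 13 of 31450 probes (0.0413%) and 9.89% had an unadjusted p under 0.05, with 0 of the 10 enzymes in either set (smallest p = 0.203, Aldh6a1). In every diet the median level was higher at week 18 than at week 15, and without week 18 the median slope was -0.053.

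Another 22 genes of the pathway, from a list of its other enzymes, regulators and carriers, were read in the same way. None passed the adjusted threshold in any comparison. Between HF20 and HFC 19 of 22 were higher, with a median of 0.50 (18 of 22 and 0.22 without the 2 arrays that stood apart). The smallest p-values belonged to Echs1, the short-chain enoyl-CoA hydratase (1.09 ± 0.61, p = 0.0875), and Auh, the methylglutaconyl-CoA hydratase of leucine breakdown (0.84 ± 0.48, p = 0.0925), with an adjusted p of 0.78 each by limma. In late against early HFC arrays 18 of 22 were lower, with a median of -0.73 (15 of 22 and -0.48 without HFC week 12). With all arrays 2 had an unadjusted p under 0.05 by limma, and without HFC week 12 there was 1. The 2 were Acadsb, which acts on isoleucine (-1.20 ± 0.43, p = 0.0168, adjusted p = 0.234 by limma), and Bckdk (-0.83 ± 0.37, p = 0.0451, adjusted p = 0.281 by limma). Bckdk is the kinase that switches the ketoacid dehydrogenase off. Between HFC and LFC over 10 time points 18 of 22 were higher, with a median of 0.18. The smallest p-values there were those of Acad8, the isobutyryl-CoA dehydrogenase of valine breakdown (0.42 ± 0.21, p = 0.0753), and Slc7a5, a large neutral amino acid carrier of the cell surface (-0.59 ± 0.34, p = 0.114), with an adjusted p of 0.998 each by limma. The trend over weeks gave an unadjusted p under 0.05 for Bcat1, the cytosolic transaminase (p = 0.0168), which fell by 0.132 log2 units per week, and Oxct1, a ketone body enzyme (p = 0.0498), with adjusted p-values of 0.43 and 0.505 by limma.

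Across the 37 arrays most of the list went with the 10 enzymes. Its mean had a Pearson r of 0.97 with the mean of the enzymes' centred levels, and an r of 0.97 within time points. Echs1 (r = 0.98), Hibch (0.97), Auh and Mmab (0.95 each) and Mut (0.93) were closest; Hibch takes valine breakdown on to 3-hydroxyisobutyrate, and Mut and Mmab serve the path from propionyl-CoA to succinyl-CoA. Slc25a44, the mitochondrial carrier of branched chain amino acids, had an r of 0.91, and Klf15, a transcription factor known to raise Bcat2 in other tissues, an r of 0.82. Both proteins that set the activity of the ketoacid dehydrogenase were on the array: Bckdk, the kinase, had an r of 0.83, while Ppm1k, the phosphatase that turns the complex on, had an r of 0.19. Bcat1 had an r of -0.24. The surface amino acid carrier subunits Slc7a5 and Slc3a2 ran the other way, with an r of -0.58 and -0.76. These values describe arrays that share scan dates and diets and are given without a test.

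The enzymes were also set beside marker lists of cells and of mitochondria over the same arrays. The mean of 8 mitochondrial genes had an r of 0.93 (rho = 0.90) with the enzymes, and an r of 0.94 within time points. The mean of 8 adipocyte markers had an r of 0.89 (rho = 0.87), and 0.92 within time points; Slc2a4, the insulin-responsive glucose carrier (r = 0.95), and Lipe, hormone-sensitive lipase (0.94), were closest, while Fabp4, a fatty acid carrier also found in macrophages and endothelium, had an r of -0.39. The mean of 4 endothelial markers had an r of -0.78 (rho = -0.59), and -0.86 within time points. Endothelial levels ran from 0.44 to 2.09 on 11 arrays with high enzymes and from 2.30 to 3.80 on the remaining arrays. No value was computed within either set, so how far the r rests on these 11 arrays is not known. Macrophage markers had an r of 0, or 0.51 within time points, and lymphoid markers an r of -0.36. The liver list had an r of 0.75 (0.60 within time points) and the brown fat list an r of 0.60 (0.32). Only 1 of 4 liver genes (mean level 2.71) and 2 of 4 brown fat genes (0.37 and 0.5) were well above background on all 37 arrays. The other genes of these 2 lists had mean levels of -3.19 or lower. The r was 0.27 for mesothelium, -0.27 for epididymis, -0.09 for testis and -0.01 for skeletal muscle. Without the 2 arrays farthest from the list's median the first 3 values were 0.93, 0.89 and -0.75. The array's own brightness, its 75th percentile, had an r of 0.42 with the enzymes. All 8 adipocyte markers were well above background on all 37 arrays, and their mean level ranged from 2.15 to 5.29 overall and from 2.32 to 5.07 in LFC, 2.71 to 5.15 in HFC, 2.20 to 5.27 in HF5, 2.94 to 5.29 in HF20 and 2.15 to 4.96 in HF75. In tissue RNA, fewer adipocytes in the piece and less enzyme RNA per adipocyte cannot be told apart, and the part of cell makeup was not tested.

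**Figure D5:**
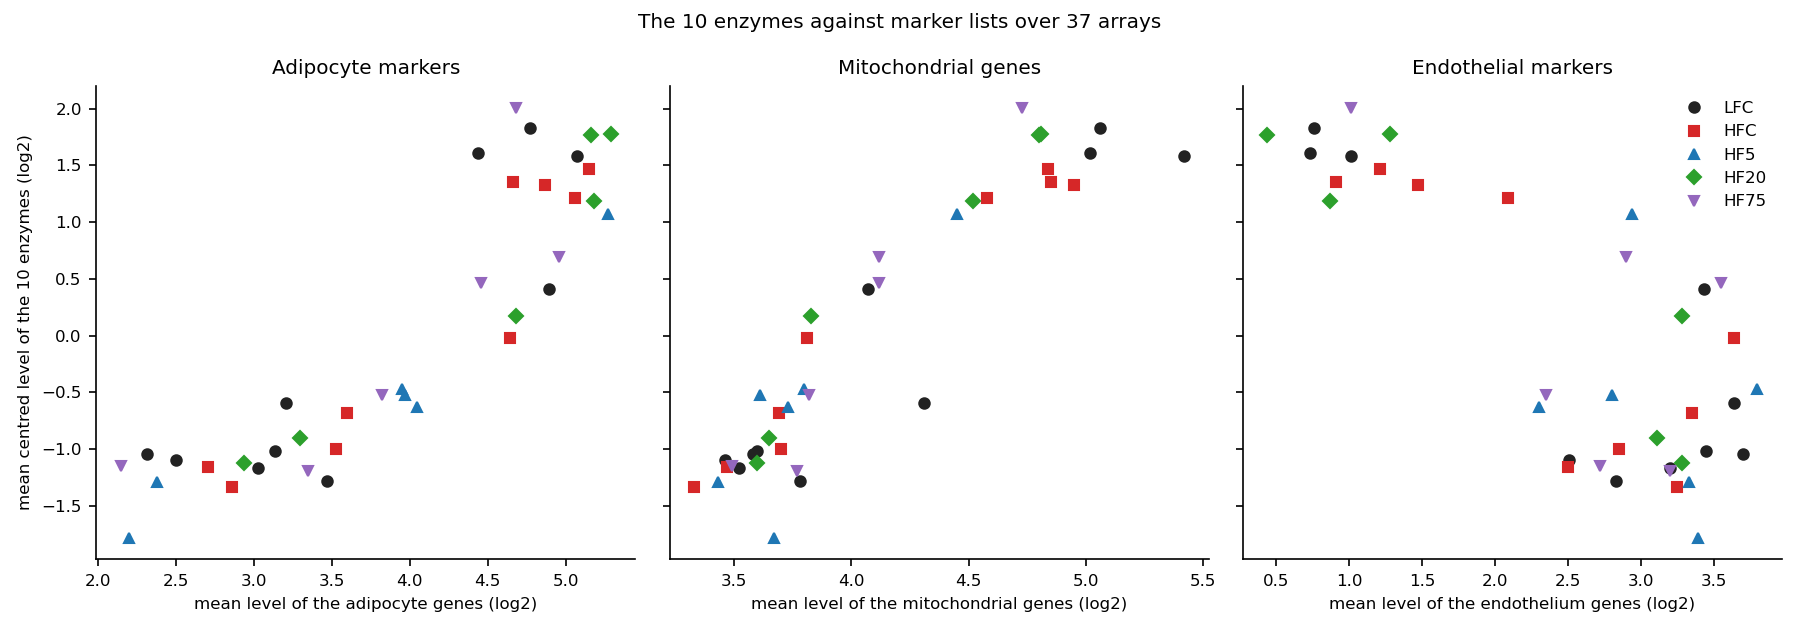
Mean centred level of the 10 enzymes (y axis, log2) against the mean level (x axis, log2) of 8 adipocyte markers, 8 mitochondrial genes and 4 endothelial markers; each point is 1 of 37 arrays, with colour and shape for the diet. The enzymes rise with the first 2 lists (r = 0.89 and 0.93) and fall with the third (r = -0.78). In the endothelial panel the 11 arrays with the lowest marker levels, up to 2.09 and none of them HF5, have high enzymes. The next array is at 2.30.

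Outside the pathway, 13931 genes had a brightest probe well above background on all 37 arrays. The 5 most like the mean of the enzymes were Acadm, the medium-chain acyl-CoA dehydrogenase of fatty acid oxidation (r = 0.983), Pxmp2, a peroxisomal membrane protein (0.982), Aldh1l1, a folate enzyme (0.98), Pgm2, a phosphoglucomutase (0.977), and Echdc3, a mitochondrial protein of the enoyl-CoA hydratase family (0.976). Acadm ran from 2.66 to 5.77 and Aldh1l1 from -1.41 to 4.26 over these arrays. Within time points their r was 0.97 or 0.98. Of all genes compared, 7.05% had an r over 0.8 with the enzymes and 2.96% an r under -0.8, so the movement was shared by many genes beyond the pathway.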

How the data were processed

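Epididymal adipose RNA from mice on 5 diets was read on 39 one-colour Agilent arrays. The intensity values used are the processed signals that the authors deposited as scanner output; per the file headers, Feature Extraction 10.5.1.1 made them (version 9.1 in the labels; build mm9). The flags for background, outliers and saturation come from the same files and are 0 or 1 marks, used here as deposited. A table that the authors made with GeneSpring GX holds log2 differences of each array from the LFC array of its time point, and served as an alternative.

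Here log2 of the processed signal minus the array's 75th percentile was taken over 43803 spots that were no controls, outlier spots were then removed, and spots of a probe were averaged. Probes were tested where above background by the scanner's mark in no fewer than 10 of 20 arrays (HFC against LFC), 6 of 30 (weeks 3 to 18) or 5 arrays (within a diet). Differences were fitted with limma 3.58.1 in R 4.3.3 with time point as a block in comparisons of diets, and adjusted over all probes by Benjamini-Hochberg at 0.05. Array number limits the precision. Named genes are the 10 enzymes, the genes of the pathway list with at most the 2 smallest p-values per comparison, and the 5 most correlated other genes; Hibch, Mmab, Mut, Slc25a44, Klf15, Ppm1k and Slc3a2, and the markers Slc2a4, Lipe and Fabp4, were named after their values were seen. The genes and lists were chosen with earlier results of these data known. The fits were run on simulated data as a check of the code. The simulated noise was independent between probes and capped below the spread of the 10 enzymes. That check therefore does not show how well the fits work for these enzymes. Alternatives covered scaling, background, filters, weights, blocks, left-out arrays and gene means; 1 was added after seeing the data. Time points pair the diets by time on the diet, and by scan date except at weeks 3 and 6.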

Additional observations from a re-analysis of the deposited data

Results flagged for a closer look

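In HF5 the week 18 array lay far above the other 5 arrays for 2 enzymes: Bckdhb was at 2.48, with the next array at 0.71, and Aldh6a1 was at 4.55, with the next at 2.42. The gap made up a larger share of the diet's range than a test for a single outlying value allows. Among 43 such groups of arrays examined, chance alone flags about 1 in 20.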

How the results depend on the processing

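The 10 enzymes gave no call in any comparison under 29 settings, the reported one included and each where it applied, except with array weights in late against early HFC, where 10 passed. The median difference of the enzymes kept its direction in 20 of 20 settings for HF20 and HF75 against HFC and in 25 of 25 for HFC against LFC over 10 time points, but in 11 of 20 for HF5 against HFC. It ranged from 0.53 to 1.71 for HF20, from 0.08 (without week 12) to 1.11 for HF75 and from 0.03 (without week 3, or with scan date as the block) to 0.76 for HFC against LFC, where all 10 stood on one side in 15 of 25. For the 4 high fat groups it kept its direction in 18 of 20, with a lowest value of -0.05. With week 0 as the only early array the HFC median was -0.01 and Bcat2 was at 0.00018. Leaving out 1 time point moved the slope's median between -0.053 and 0.091 (-0.053 without week 18). Leaving out the block for time point, which pairs the diets, cannot move a difference where every array gives a value. The medians stayed at 0.35 (HFC against LFC), 1.12 (HF20), 0.71 (HF75) and 0.07 (HF5), so this setting is no check on them. No call changed.

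Counts of all probes called, the background above, moved more. For the slope (13) they were 33 without the 2 arrays, 2 with normexp, 8 with quantile scaling, 0 with median scaling, 2 with a filter that asks for signal above background on each array, 269 with array weights, 31 for weeks 12 to 18 against 3 to 9, 7 with gene means, 31 with the percentile over spots that are outliers on no array (added after seeing the data), and 0 to 634 without 1 time point (634 without week 3, 0 without week 6 or 18). For LFC (149) they were 0 with normexp or week 0 alone, 96 with quantile and 78 with median scaling, 40 with the strict filter, 82 with outlier spots kept and 331 with array weights. For HFC (0) they were 1 with quantile and 41 with median scaling, 8032 with array weights, and 1 with week 0 alone. Array weights gave 1 for the 4 high fat groups and 1 for the change in HFC minus LFC. Without 1 time point, they were 48 to 210 for LFC (48 without day 6, 210 without week 3), 0 to 823 for HFC (823 without week 0) and 0 to 1 for the mean of the doses. The causes were not tested. The slide correlation was -0.87 over the HFC and LFC arrays, from few shared slides; a block for slide was not run for the late against early comparisons. Background correction mattered for single enzymes: normexp moved Dbt from 0.045 to -0.256 for the 4 high fat groups and from -0.301 to 0.221 for late against early LFC. Probe choice did too. With the mean of all probes of a gene, Mccc1 moved from 0.436 to -0.09 for the 4 high fat groups. For HF5 against HFC it moved from 0.073 to -0.488, and Bckdha from 0.298 to -0.15.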
